A study of Mus musculus with 64 samples.

Results

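Expression of 8 genes of the type 2 helper (Th2) and tissue-repair programme was followed across 64 mouse RNA-seq libraries in 28 groups. The genes were the cytokines Il4, Il5, Il9 and Il13, the transcription factor Gata3, the receptors Il4ra and Il1rl1, and the growth factor Areg. They were chosen by name, as 8 of 55809 genes counted, and all 8 had a row in every library. The libraries came from a study of what regulatory T (Treg) cells lose and gain when their lineage factor Foxp3 is removed or restored.

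In the degron experiment all mice carried Foxp3-AID, in which Foxp3 is fused to an auxin-inducible degron and its allele also encodes ZsGreen and Cre. Cre switches on the plant ligase gene ROSA26-TIR1(F74G), which sits behind a floxed stop and carries mCherry, in cells that express Foxp3. Mice with ROSA26-WT served as controls, and every degron group, controls included, received 5-ph-IAA for 7 days. Adult groups were thymic Treg cells sorted as CD73-negative and active (CD62 low) Treg cells of spleen and lymph nodes, with 3 TIR1 and 3 WT libraries each. Infant Treg cells of spleen and lymph nodes had 4 libraries per genotype. Per the study's methods, adults were heterozygous females, whose other Foxp3 allele is intact, so that healthy Treg cells without the degron were present in the same mice. For its infant experiments the study's reporting summary names hemizygous Foxp3-AID males, which have no intact Foxp3 allele beside the degron allele. The study reports severe autoimmune disease in neonates after Foxp3 degradation.

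In the reversible experiment, called KIKO in the labels, a stop cassette keeps the Foxp3-LSL allele from making protein. Cells that transcribe it are called Treg wannabe cells in the labels. PlusFoxp3 cells came from mice with CD4-CreERT2, in which 4-hydroxytamoxifen (4-OHT) restores Foxp3, and minusFoxp3 cells from CD4-WT mice given the same agent. Resting and active cells of both kinds were taken without treatment (day 0) and 3, 7, 14 and 28 days after 4-OHT, with 2 libraries per group. These mice were also heterozygous females with healthy Treg cells. Untreated Foxp3GFP mice gave 2 resting and 2 active libraries of GFP Treg cells.

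The libraries held 27753211 to 57419138 counted read pairs. Levels are given as counts per 1e+06 counted pairs of the library (CPM). The header library names of the 12 adult degron files belonged to samples of the other genotype than the records to which the files were attached, and the files were assigned by header. For the infants the titles and the genotype field named opposite genotypes, and the names titled TIR1 and titled WT are used for them here. Which of the pair lost Foxp3 is not settled. Foxp3 mRNA does not check these labels, because the degron acts on the protein. Foxp3 mRNA was at 144 to 181 CPM in the 6 thymic libraries with both genotypes overlapping. As assigned by header, the 5 Treg markers summed to 2224 to 2494 CPM in TIR1 and 2661 to 2791 CPM in WT thymic libraries. In active cells they summed to 1852 to 2037 CPM in TIR1 and 2173 to 2252 CPM in WT libraries. Neither pair of groups overlapped, and these values were not used to assign the files. In the reversible experiment Foxp3 mRNA did follow the labels. It was at 44.3 to 81.5 CPM in minusFoxp3 and untreated plusFoxp3 libraries and 426 to 615 CPM in every plusFoxp3 library from day 3 on. Markers of CD4 T cells (Cd3e, Cd4, Trac and Trbc2) summed to at least 3604 CPM in every library, and Treg markers to at least 759 CPM.

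Th2 cells are the helper T cells that drive responses to worms and allergens. Gata3 is their master transcription factor and opens the cytokine locus in which Il4, Il13 and Il5 lie. IL-4 signals through the receptor chain that Il4ra encodes and the kinase-activated factor Stat6, and so reinforces its own production. Treg cells also use Gata3, and those in tissues display ST2, the receptor for the alarm cytokine IL-33 that Il1rl1 encodes, and make amphiregulin, the Areg product, which binds the EGF receptor and promotes repair. Foxp3-expressing cells are known for restraining cytokine genes, Il4 among them.

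Il4 is on chromosome 11 at 53493809 to 53509496, minus strand, in the GRCm39 build of the files. Il13 follows at 53522151 to 53525529 on the same strand, then the DNA repair gene Rad50, and then Il5 at 53611621 to 53615933 on the plus strand. Il9 is on chromosome 13 at 56627090 to 56630059 (minus), and Gata3 on chromosome 2 at 9861889 to 9894845 (minus). Il4ra is on chromosome 7 at 125151292 to 125178646 (plus), Il1rl1 on chromosome 1 at 40468730 to 40504575 (plus) and Areg on chromosome 5 at 91287458 to 91296291 (plus). Counts used reads over exons of any transcript of the gene. Reads were counted without strand, and exons of the antisense gene Gm12214 share 417 of the 1537 exonic bases of Il5. Exons of Gm44876 share 571 of 6002 bases of Il4ra. Gata3 shares 155 and 77 of 3978 bases with Gm13256 and 9230102O04Rik. Exons of the other 5 genes overlapped no other gene.

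The bases just upstream of the starts of the 3 linked cytokine genes and of Il1rl1 are shown because Gata3, one of the 8 genes, binds GATA motifs. These genes were picked with it known that Il4 and Il1rl1 moved in opposite directions below. Binding was not measured, and a link of the matches to those directions was not tested. RefSeq promoter windows were found for all 8 genes, 10 windows in all, in the GRCm38.p6 build, whose coordinates differ from those above. The motif NGATAN, with A or T as its first base and A or G as its last, was searched on both strands in the 250 bases before each start. Of 32851 windows of that length over all genes, 26.5% held at least 1. Each line gives 120 bases up to the start, 5′ to 3′ on the strand of the gene, with motif matches in capitals.
Il4, chr11:53618666-53618785, minus strand: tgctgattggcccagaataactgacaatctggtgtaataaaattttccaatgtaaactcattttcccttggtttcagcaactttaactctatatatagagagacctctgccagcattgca
Il13, chr11:53634703-53634822, minus strand: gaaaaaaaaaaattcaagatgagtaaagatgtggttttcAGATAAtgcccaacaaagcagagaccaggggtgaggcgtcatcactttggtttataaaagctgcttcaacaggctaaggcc
Il5, chr11:53720674-53720793, plus strand: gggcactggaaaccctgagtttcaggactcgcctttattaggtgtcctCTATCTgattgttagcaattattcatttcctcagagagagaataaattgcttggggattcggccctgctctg
Il1rl1, upstream start, chr1:40429450-40429569, plus strand: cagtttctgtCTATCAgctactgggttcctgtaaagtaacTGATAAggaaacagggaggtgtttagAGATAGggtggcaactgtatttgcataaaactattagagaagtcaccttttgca
Il1rl1, downstream start, chr1:40439509-40439628, plus strand: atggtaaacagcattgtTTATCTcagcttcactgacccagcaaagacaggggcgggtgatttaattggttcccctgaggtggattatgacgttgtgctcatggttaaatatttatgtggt
The Il13 match began 81 bases before the start and the Il5 match, read on the opposite strand, 72 bases before it. The Il4 window shown held none in its 250 bases. A further Il4 start within the gene, not shown, held 1, which began 80 bases before that start. The upstream Il1rl1 window held 5 matches in 250 bases, a number reached by 14 of the 32851 windows, and the downstream one held 1. The windows of Gata3, Il4ra, Areg and Il9 held none. Counts per gene do not tell which start was used.

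Il4 was the Th2 cytokine with measurable expression, and its level followed both Foxp3 and cell state. In active minusFoxp3 cells Il4 was at 40.1 and 22.6 CPM at day 0 and at 31.2 and 22.3 CPM at day 3. It was at 73.0 and 28.2 CPM at day 7, 22.3 and 44.9 CPM at day 14, and 22.7 and 22.8 CPM at day 28. These libraries stayed above 22 CPM throughout, with one of the day 7 pair well above all others.

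In active plusFoxp3 cells Il4 was at 27.1 and 22.4 CPM before 4-OHT. It was at 8.47 and 8.15 CPM at day 3, 6.46 and 5.43 CPM at day 7, 7.67 and 6.04 CPM at day 14, and 3.11 and 3.04 CPM at day 28. The untreated plusFoxp3 libraries lay inside the minusFoxp3 range, and every treated one lay below the lowest minusFoxp3 library. Active GFP Treg cells held 0.816 and 0.291 CPM, lower than every active library of the reversible allele.

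Over days 3 to 28 Il4 in active cells fell by 2.46 ± 0.23 on the log2 scale with Foxp3 (SE, 8 plusFoxp3 against 8 minusFoxp3 libraries, adjusted p = 3.03e-06 in edgeR's quasi-likelihood test with Benjamini-Hochberg adjustment over all genes). In this comparison 3 of the 5 genes of the list that could be tested were called, against 6.22% of all 20776 genes, where a gene is called at an adjusted p below 0.05. By day, Il4 was called lower in active plusFoxp3 cells at day 7 (-3.04 ± 0.46, adjusted p = 0.00438), day 14 (-2.29 ± 0.45, 0.0238) and day 28 (-2.88 ± 0.47, 0.00256). All genes were called at 0.568%, 0.732% and 1.85% on those days. At day 3 the log2 difference was -1.62 ± 0.44 with an adjusted p of 0.205, against 0.274% of genes called, and DESeq2 called it (adjusted p = 0.0115; 7.97e-06 to 0.693 over 9 other settings). At day 0 it was -0.33 ± 0.43 (adjusted p = 0.999, 0.00481% of genes called). In bulk RNA a lower level per library cannot be told apart between fewer Il4-expressing cells and less Il4 per cell.

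In resting minusFoxp3 cells every library held less Il4 than any active minusFoxp3 library. It was at 5.32 and 2.55 CPM at day 0, 3.94 and 5.32 CPM at day 3, 4.81 and 3.46 CPM at day 7, 1.99 and 1.90 CPM at day 14, and 4.19 and 2.33 CPM at day 28. Resting plusFoxp3 cells had 1.89 and 2.19 CPM at day 0, 0.456 and 1.26 CPM at day 3, 0.971 and 1.44 CPM at day 7, 0.640 and 0.309 CPM at day 14, and 0.903 and 0.165 CPM at day 28. From day 3 on every plusFoxp3 library lay below every minusFoxp3 library. At day 0, before 4-OHT, both plusFoxp3 libraries were already below both minusFoxp3 libraries. The log2 difference there was -0.95 (adjusted p = 0.589 in edgeR, 0.00487% of genes called).

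Resting GFP Treg cells had 0.311 and 0.0969 CPM, from 17 and 5 read pairs. The mean log2 effect of Foxp3 on Il4 over days 3 to 28 in resting cells was -2.19 ± 0.33 (adjusted p = 8.83e-04), among 4.73% of 20520 genes called. No single day passed in resting cells in edgeR, with log2 differences of -2.35 ± 0.66 at day 3, -1.79 ± 0.64 at day 7, -1.99 ± 0.68 at day 14 and -2.60 ± 0.68 at day 28 and adjusted p-values from 0.102 to 0.621. DESeq2 called Il4 at resting days 3 and 28 (adjusted p = 0.0257 and 0.00345). Without the count filter edgeR called it at days 3, 14 and 28 (0.00255, 0.0255 and 2.87e-04). Over all other settings the adjusted p ranged from 0.00255 to 0.848, from 0.0255 to 0.841 and from 2.87e-04 to 0.542 on those 3 days. The Foxp3 effects in active and resting cells differed by -0.29 ± 0.40 on the log2 scale (adjusted p = 0.861), and 1.82% of genes were called for such a difference. No member was, by edgeR or DESeq2, while 2 (Gata3 and Il4ra) had an unadjusted p below 0.05, as did 2683 of all 20790 genes.

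**Figure D1:**
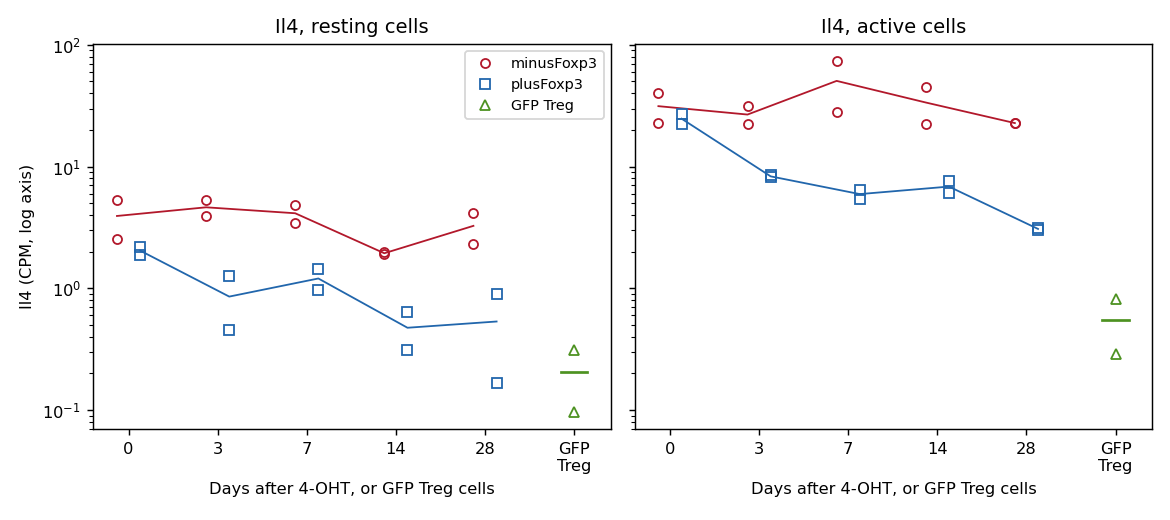
Il4 in resting (left) and active (right) cells, in CPM on a log axis; the horizontal axis lists days after 4-OHT as evenly spaced categories, with GFP Treg cells at the right. Each symbol is 1 library and lines join group means. PlusFoxp3 libraries from day 3 on lie below the minusFoxp3 libraries in both states. In resting cells the day 0 plusFoxp3 pair also lies below the day 0 minusFoxp3 pair. GFP Treg means of 0.204 and 0.554 CPM lie lowest.

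GFP Treg cells marked the end of the Il4 range. Against untreated minusFoxp3 cells Il4 fell by 5.78 ± 0.55 on the log2 scale in active cells (adjusted p = 2.41e-06, 10% of genes called) and differed by -4.22 ± 0.74 in resting cells (adjusted p = 0.00370, 2.91% of genes called). The resting call was lost without resting GFP Treg replicate 2, the library with 5 read pairs, at a log2 difference of -3.61 and an adjusted p of 0.0637. Active GFP Treg cells were also lower than active plusFoxp3 cells at day 28, by -2.45 ± 0.51 (adjusted p = 0.0159, 2.01% of genes called). Without active plusFoxp3 day 28 replicate 1 or without active GFP Treg replicate 2 that call was lost, with adjusted p-values up to 0.158. In resting cells the same difference was -1.34 ± 0.73, with an adjusted p of 1 and 0.0341% of genes called. There edgeR and DESeq2 called no member, and 1, Il1rl1, had an unadjusted p below 0.05, as did 813 of all 20520 genes.

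Mast cells and basophils also make IL-4, so their 8 markers were summed. They reached 15.7 to 45.6 CPM in active minusFoxp3 libraries and 8.24 to 25.6 CPM in active plusFoxp3 libraries from day 3 on. The sums were lower in active plusFoxp3 libraries at days 7, 14 and 28, as Il4 was. At active day 3, when Il4 was already lower, they overlapped (17.6 to 25.6 against 15.7 to 33.0 CPM). In resting cells they overlapped at days 3 (9.62 to 11.3 against 9.15 to 10.4 CPM), 7 and 28 and were lower at day 14. Thymic libraries had sums of 31.3 to 60.7 CPM, with at most 13 pairs of Il4. Kit, which progenitor cells share, Hdc and Cpa3 reached 56.6, 13.4 and 6.14 CPM in the 64 libraries, and the part of this list in the Il4 result was not tested. The list also moved with Il4 in GFP Treg cells, at 6.57 to 6.59 CPM against at least 23.4 CPM in untreated minusFoxp3 cells of the active state and 4.35 to 6.28 CPM against 8.91 to 11.7 CPM in the resting state. B cell markers moved the other way there, at 39.7 to 48.2 CPM against 14.0 to 25.8 CPM in active cells and 33.8 to 47.9 CPM against 21.0 to 23.4 CPM in resting cells. The part of either list in the GFP Treg results was not tested. The rest of the mast cell and basophil list (Mcpt8, Fcer1a, Gata2, Ms4a2 and Prss34) did not exceed 0.198, 0.169, 0.366, 0.0789 and 0.297 CPM in any of the 64 libraries. The eosinophil markers Siglecf, Epx and Prg2 did not exceed 0.588, 0.254 and 0.709 CPM.

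The other 3 cytokines were close to the limit of detection. Il5, which drives eosinophil production, had 3 or fewer read pairs in 48 of 64 libraries and at most 24. The 24 pairs were in 1 active plusFoxp3 library at day 0 (0.549 CPM, 95% Clopper-Pearson interval 0.352 to 0.817) and 1 active degron WT library (0.743 CPM, 0.476 to 1.11). Their partner libraries held 0 pairs. Il13, which acts on epithelium and goblet cells, had 3 or fewer pairs in 58 libraries and at most 7.

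Il9, a mast cell growth factor, had 0 pairs in 60 of 64 libraries. The 4 others were active degron WT replicate 2 with 173 pairs (5.15 CPM, 4.41 to 5.98), active minusFoxp3 at day 7 with 11, active minusFoxp3 at day 0 with 7 and active minusFoxp3 at day 28 with 1. All 4 were active cells. None was a plusFoxp3 or GFP library, yet the largest count was in a degron control, which keeps Foxp3. No pattern by Foxp3 is read from these counts. Intervals cover counting error alone, and 3 pairs, taken here as the floor, correspond to at most 0.106 CPM in the thymus libraries. Il5 and Il13 passed the minimum mean of 10 read pairs in no fit, and Il9 in 2, the active degron fit and the fit over all adult degron libraries. At this depth differences in Il5, Il9 and Il13 between the groups of the reversible experiment were not detectable.

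**Figure D2:**
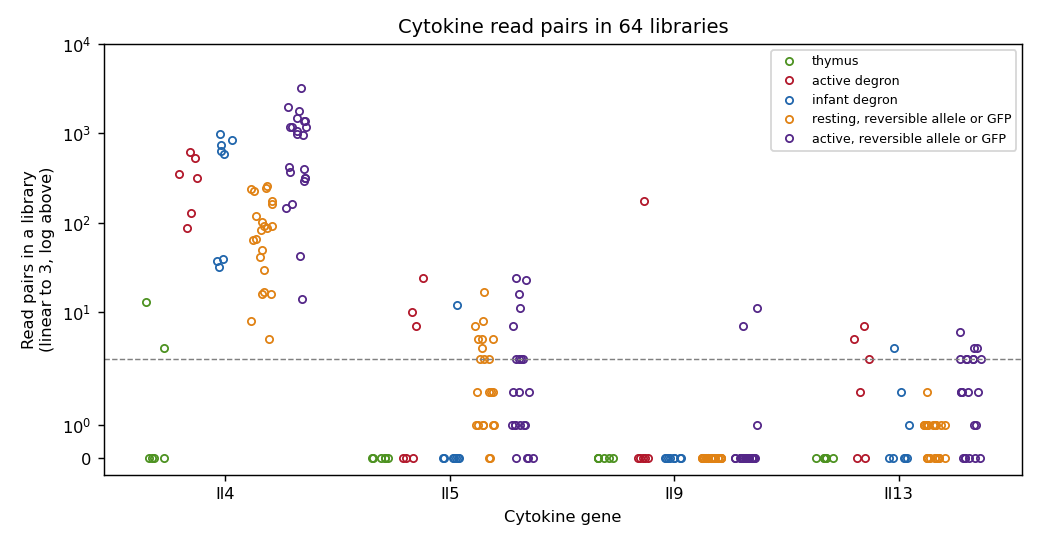
Read pairs of the 4 cytokine genes in each of 64 libraries, on an axis that is linear to 3 pairs (dashed line) and logarithmic above. Colours give the experiment and cell state; Il4 reached 3204 pairs, while Il5, Il9 and Il13 reached 24, 173 and 7.

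Il4ra, the receptor for IL-4, moved opposite to its ligand in active cells. It was at 81.4 and 129 CPM at day 0 in active minusFoxp3 cells, 92.1 and 110 CPM at day 3, 70.8 and 107 CPM at day 7, 112 and 133 CPM at day 14, and 126 and 124 CPM at day 28. In active plusFoxp3 cells it was at 102 and 98.2 CPM at day 0, 132 and 141 CPM at day 3, 193 and 178 CPM at day 7, 155 and 195 CPM at day 14, and 190 and 236 CPM at day 28. PlusFoxp3 libraries were above both minusFoxp3 libraries at each day from day 3 on, and overlapped them at day 0.

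The mean effect over days 3 to 28 on Il4ra was 0.72 ± 0.11 (log2, adjusted p = 5.78e-04). Of single days, edgeR called day 7 (1.10 ± 0.22, adjusted p = 0.0323). The day 28 difference was 0.77 (adjusted p = 0.102), and DESeq2 (0.0407) and edgeR without the count filter (0.00936) called it. That day 7 call, like the Il4 call of that day, was lost without either plusFoxp3 library, without minusFoxp3 replicate 1, or in a fit of the 4 libraries alone, with adjusted p-values up to 0.416 for Il4ra and 0.179 for Il4. At day 14 the Il4 call was lost in 3 of the 4 fits that left out a library, with an adjusted p-value up to 0.274. Summed active T cell markers also separated the groups at day 3 (1178 to 1239 CPM in plusFoxp3 against 922 to 929 CPM in minusFoxp3 libraries). They did so at day 14 (1654 to 1772 against 1009 to 1116 CPM) and day 28 (1463 to 1513 against 845 to 874 CPM). Resting T cell markers were at 928 to 1134 CPM in plusFoxp3 and 1466 to 1489 CPM in minusFoxp3 libraries at day 3. They were at 777 to 781 against 1295 to 1510 CPM at day 14 and 685 to 1117 against 1506 to 1605 CPM at day 28. At day 7 the groups overlapped in both marker lists. The part of these in the Il4 and Il4ra values was not tested.

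Active GFP Treg cells had 350 and 346 CPM of Il4ra, 1.75 ± 0.23 log2 above untreated minusFoxp3 cells (adjusted p = 6.19e-05). Against plusFoxp3 cells at day 28 they differed by 0.71 ± 0.22 (adjusted p = 0.140), which edgeR called only without the count filter (0.0238). In resting cells Il4ra ranged from 153 to 325 CPM in the 10 minusFoxp3 libraries and from 210 to 358 CPM in the 10 plusFoxp3 libraries. GFP Treg cells had 392 CPM in both, 0.86 ± 0.28 above untreated minusFoxp3 cells (adjusted p = 0.139), and this was called without resting minusFoxp3 day 0 replicate 2 (1.43, adjusted p = 0.0247, over a range of 0.00195 to 0.670). The resting mean effect was 0.32 ± 0.14 (adjusted p = 0.245). The difference between the states was 0.39 ± 0.18 (adjusted p = 0.364), so that an effect particular to active cells was not shown.

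Il1rl1, which encodes ST2, had the largest positive log2 differences of the 5 testable genes between GFP Treg and untreated minusFoxp3 cells. In resting minusFoxp3 cells it stayed between 0.401 and 2.51 CPM in all 10 libraries. In resting plusFoxp3 cells it was at 0.957 and 1.49 CPM at day 0, 1.23 and 2.80 CPM at day 3, 2.45 and 0.877 CPM at day 7, 2.58 and 4.23 CPM at day 14, and 8.52 and 6.66 CPM at day 28. The groups overlapped through day 7 and separated at days 14 and 28. Resting GFP Treg cells had 14.6 and 25.8 CPM, above every resting library of the reversible allele.

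The mean effect on Il1rl1 over days 3 to 28 in resting cells was 1.33 ± 0.30 (log2, adjusted p = 0.0165). It was lost without 1 of 3 libraries, resting plusFoxp3 day 3 replicate 2, day 7 replicate 1 or minusFoxp3 day 28 replicate 1, with adjusted p-values up to 0.0563. The day 28 difference was 2.50 ± 0.61 with an adjusted p of 0.0754 in edgeR and 0.00162 in DESeq2. Over all settings tried for this value the call was made in 2, DESeq2 and no count filter. At day 28 the summed markers of active T cells were at 347 and 755 CPM in resting plusFoxp3 libraries and 254 and 315 CPM in minusFoxp3 libraries, and the part of this in the Il1rl1 value was not tested. GFP Treg cells exceeded untreated minusFoxp3 cells by 4.14 ± 0.66 (adjusted p = 0.00163). The active T cell markers were at 632 to 645 CPM in these resting GFP Treg libraries and 204 to 325 CPM in the minusFoxp3 ones, and their part in this value was not tested either.

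In active cells Il1rl1 was at 1.74 and 2.89 CPM at day 0 in minusFoxp3 cells, 2.60 and 2.81 CPM at day 3, 0.729 and 2.72 CPM at day 7, 1.69 and 2.37 CPM at day 14, and 3.55 and 4.54 CPM at day 28. Active plusFoxp3 cells had 2.94 and 4.64 CPM at day 0, 5.07 and 3.15 CPM at day 3, 7.16 and 4.11 CPM at day 7, 2.87 and 4.70 CPM at day 14, and 5.60 and 6.39 CPM at day 28. The plusFoxp3 pair was higher at every day, day 0 included, when no 4-OHT had been given. The mean effect over days 3 to 28 was 0.98 ± 0.26 (adjusted p = 0.0313), and it was lost in 9 of 16 fits that left out 1 library, with adjusted p-values up to 0.105. At day 7 the difference was 1.76 ± 0.53 (adjusted p = 0.185), and without minusFoxp3 replicate 2 it was 3.00 and called (adjusted p = 0.0106, over a range of 0.00484 to 0.875). With all libraries, DESeq2 (adjusted p = 0.0258) and edgeR without the count filter (0.00484) called the day 7 difference. Active GFP Treg cells had 15.0 and 27.2 CPM, 3.21 ± 0.55 above untreated minusFoxp3 cells (adjusted p = 8.44e-04). Their difference from active plusFoxp3 cells at day 28 was 1.82 ± 0.52 (adjusted p = 0.100). DESeq2 (adjusted p = 0.00870) and edgeR without the count filter (0.00177) called it, and the other settings did not. The resting counterpart was 1.42 ± 0.58 (adjusted p = 1).

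Gata3 changed by small steps from a high level. Resting minusFoxp3 cells held 115 to 162 CPM in 10 libraries. Resting plusFoxp3 cells held 165 and 139 CPM at day 0, 186 and 169 CPM at day 3, 186 and 182 CPM at day 7, 170 and 212 CPM at day 14, and 202 and 190 CPM at day 28. From day 3 on all 8 plusFoxp3 libraries were above all 8 minusFoxp3 libraries, and the mean effect was 0.45 ± 0.08 (log2, adjusted p = 0.00296). At day 0, before 4-OHT, both plusFoxp3 libraries were already above both minusFoxp3 libraries of that day. The log2 difference there was 0.21 (adjusted p = 0.646 in edgeR). No single day from 3 to 28 was called by edgeR, with adjusted p-values from 0.167 to 0.621. DESeq2 called day 14 (0.63, adjusted p = 0.0161, over a range of 0.0161 to 0.873). Resting GFP Treg cells had 227 and 215 CPM, 0.77 ± 0.16 above untreated minusFoxp3 cells (adjusted p = 0.0124). Without resting minusFoxp3 day 0 replicate 1 or GFP Treg replicate 1 that call was lost, with an adjusted p up to 0.128.

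Active cells held 153 to 227 CPM of Gata3 in minusFoxp3 libraries and 172 to 254 CPM in plusFoxp3 libraries. The mean effect was 0.13 ± 0.08 (adjusted p = 0.472). The plusFoxp3 pair was higher at day 0 already, at 231 and 228 CPM against 173 and 165 CPM. The difference between the states was -0.33 ± 0.11 (adjusted p = 0.147). Active GFP Treg cells had 215 and 268 CPM, 0.54 ± 0.16 above untreated minusFoxp3 cells (adjusted p = 0.0466), and this call was lost in each of the 4 fits without 1 of these libraries, with an adjusted p up to 0.357.

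Areg was low and variable, and its difference between plusFoxp3 and minusFoxp3 cells was not called by edgeR with all libraries. Resting libraries of the reversible allele held 0.906 to 6.65 CPM, and resting GFP Treg cells 4.26 and 5.35 CPM. Active minusFoxp3 cells held 4.83 and 5.68 CPM at day 0, 5.34 and 10.1 CPM at day 3, 6.29 and 8.06 CPM at day 7, 7.99 and 8.68 CPM at day 14, and 3.80 and 12.3 CPM at day 28. Active plusFoxp3 cells held 3.35 and 3.73 CPM at day 0, 7.92 and 8.11 CPM at day 3, 11.2 and 9.38 CPM at day 7, 12.3 and 11.7 CPM at day 14, and 10.7 and 9.88 CPM at day 28. The plusFoxp3 pair was lower at day 0 and higher at days 7 and 14, and the groups overlapped at days 3 and 28. The mean effect was 0.40 ± 0.20 in active cells (adjusted p = 0.347) and 0.24 ± 0.31 in resting cells (adjusted p = 0.746). Without active minusFoxp3 day 28 replicate 2, the library at 12.3 CPM, the active mean effect was 0.65 and called (adjusted p = 0.0337, over a range of 0.0337 to 0.596). Active GFP Treg cells, at 10.1 and 16.1 CPM, differed from untreated minusFoxp3 cells by 1.34 ± 0.41 with an adjusted p of 0.0504. That difference was called by DESeq2 (adjusted p = 0.0117), without the count filter (0.00758) and with the replicate block (0.0345), over a range of 0.00758 to 0.336.

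**Figure D3:**
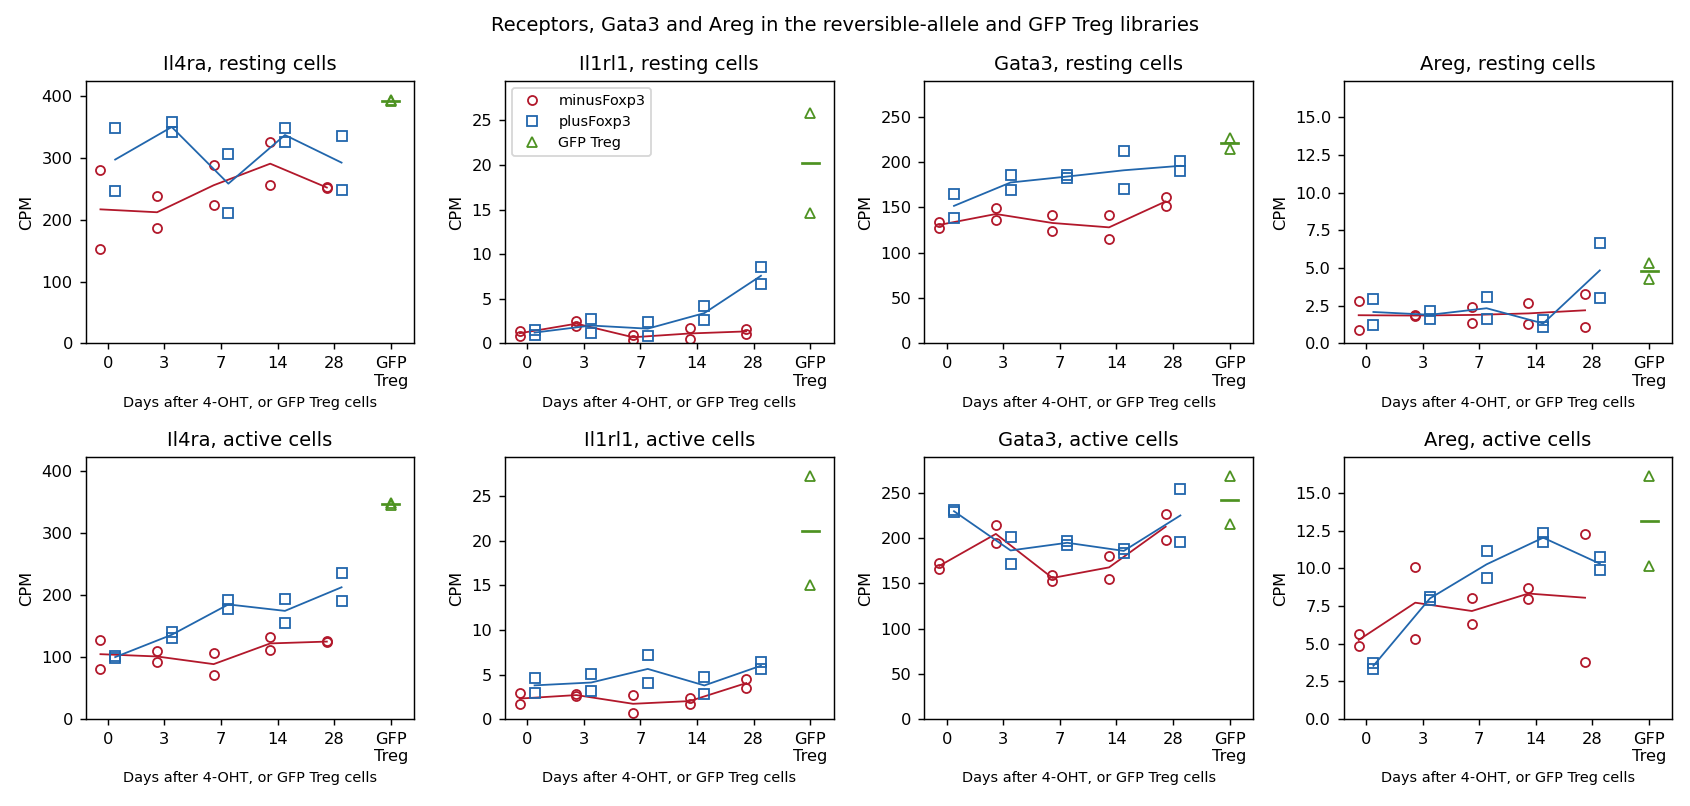
Il4ra, Il1rl1, Gata3 and Areg in resting (top) and active (bottom) cells, in CPM against days after 4-OHT as evenly spaced categories and GFP Treg cells. Each symbol is 1 library and lines join group means; Il1rl1 in resting plusFoxp3 cells reached 8.52 and 6.66 CPM at day 28, below the GFP Treg libraries at 14.6 and 25.8 CPM.

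**Figure D4:**
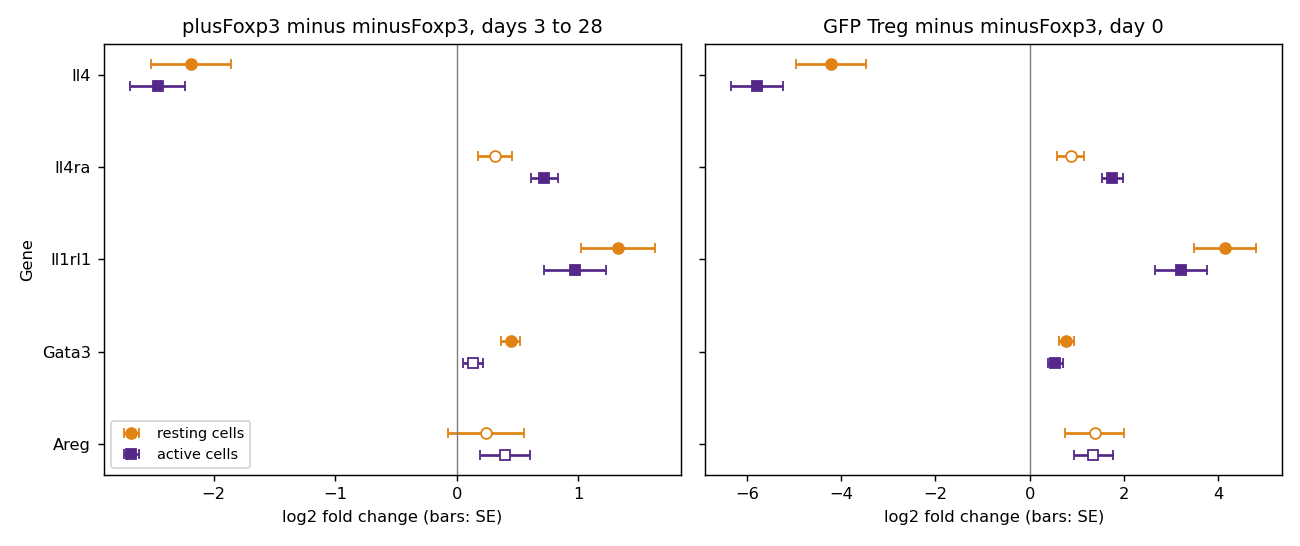
Log2 fold changes with SE of the 5 testable genes in resting (circles) and active (squares) cells, for Foxp3 over days 3 to 28 (left) and for GFP Treg against untreated minusFoxp3 cells (right, wider scale). Filled symbols have an adjusted p below 0.05; Il4 is the gene on the negative side in all 4 comparisons.

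Of the 8 genes, 5 passed the filter in the reversible-allele fits, Il4, Il4ra, Il1rl1, Gata3 and Areg. Among these, 2 were called higher and 1 lower over days 3 to 28 in each state, with medians of 0.32 in resting and 0.40 in active cells, beside medians of -0.02 and near 0 over all genes. In resting cells no member was called on single days by edgeR, while 0, 3, 2, 3 and 3 had an unadjusted p below 0.05 at days 0, 3, 7, 14 and 28 and DESeq2 called 0, 1, 0, 1 and 2. On those days 2219, 2247, 1172, 1821 and 1826 of all 20520 genes had an unadjusted p below 0.05. In active cells at days 0 and 3 no member was called by edgeR either, 1 and 2 had an unadjusted p below 0.05, and DESeq2 called 0 and 1. Of all 20776 genes, 951 and 1537 had an unadjusted p below 0.05. The shares of genes called in resting cells on days 0 to 28 were 0.00487%, 0.0487%, 0.0585%, 0.268% and 0.945%. MinusFoxp3 cells at day 28 against day 0 gave no called member and no called gene in either state (0% of genes in edgeR). There, 752 resting and 549 active genes had an unadjusted p below 0.05, none of them a member, and DESeq2 called 6 and 0 genes.

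All 5 testable genes differed between active and resting minusFoxp3 cells. In minusFoxp3 cells over all 5 time points (10 active against 10 resting libraries) Il4 was 3.22 ± 0.26 log2 higher in active cells (adjusted p = 3.69e-11) and Areg 1.89 ± 0.25 higher (4.77e-07). Il1rl1 was 1.02 ± 0.27 higher (0.00297) and Gata3 0.40 ± 0.07 higher (3.45e-05). Il4ra was lower in active cells, with a log2 difference of -1.16 ± 0.12 (3.87e-09). Of all genes, 37.9% of 20790 were called. In plusFoxp3 cells at days 14 and 28, Il4 (3.19 ± 0.44, adjusted p = 4.53e-06) and Areg (2.13 ± 0.40, 2.77e-04) were higher in active cells and Il4ra was lower (-0.72 ± 0.18, 0.00696), among 16% of genes called.

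The Il4ra call in plusFoxp3 cells was lost without resting plusFoxp3 day 28 replicate 2 (adjusted p = 0.0562). Il1rl1 differed by -0.11 ± 0.40 (0.910) and Gata3 by 0.07 ± 0.11 (0.773). In GFP Treg cells no member was called by edgeR or DESeq2 between states, where edgeR called 3.12% of genes. An unadjusted p below 0.05 was found for 1 member and for 3045 of all 20790 genes. Il1rl1 there was 20.2 ± 7.92 CPM in resting and 21.1 ± 8.64 CPM in active cells (SD, n = 2), a log2 difference of 0.04 ± 0.56.

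In the thymus of adult degron mice the Th2 cytokines and Il1rl1 were not detected, apart from traces of Il4. Il5, Il9, Il13 and Il1rl1 had 0 read pairs in all 6 libraries. Il4 had 0 pairs in 4, and 4 and 13 pairs in 2 WT libraries. Gata3 was at 388, 432 and 409 CPM in thymic WT cells and at 342, 280 and 335 CPM in thymic TIR1 cells. The groups did not overlap, and the log2 difference was -0.36 ± 0.09 with an adjusted p of 0.493 in edgeR and 0.0233 in DESeq2 (0.0233 to 0.816 over 10 settings). Il4ra was at 150, 162 and 184 CPM in WT and 201, 202 and 166 CPM in TIR1 cells, a difference of 0.19 ± 0.11 (adjusted p = 0.772). Areg was at 6.24, 2.14 and 2.45 CPM in WT and 2.63, 0.970 and 1.95 CPM in TIR1 cells, a difference of -0.96 ± 0.70 (0.847). None of the 3 tested genes was called, nor was any other gene (0%), although 1050 genes, Gata3 among them, had an unadjusted p below 0.05 and DESeq2 called 156.

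In active Treg cells of adults Il4 was at 11.5, 2.59 and 3.99 CPM in WT and at 12.0, 18.6 and 20.2 CPM in TIR1 cells. The TIR1 libraries were all higher, the nearest pair by under 1 CPM, and the log2 difference was 1.45 ± 0.56 with an adjusted p of 1.00. Il4ra was at 66.7, 181 and 117 CPM in WT and 97.3, 76.9 and 76.9 CPM in TIR1 cells (-0.57 ± 0.32, adjusted p = 1.00). Il1rl1 was at 3.21, 5.74 and 6.07 CPM in WT and 5.90, 11.5 and 6.88 CPM in TIR1 cells (0.66 ± 0.44, 1.00). Gata3 was at 241, 227 and 231 CPM against 218, 235 and 259 CPM (-0.01 ± 0.13, 1.00), and Areg at 5.22, 4.91 and 7.12 CPM against 3.32, 2.91 and 5.25 CPM (-0.62 ± 0.45, 1.00). The groups overlapped for these 4 genes. Il9 entered this fit through 1 WT library alone, so its test is not read. No gene was called (0%) by edgeR, 672 genes, Il4 among them, had an unadjusted p below 0.05, and DESeq2 called 21 genes and no member. Under the recorded attachment of the files the signs of these differences, and of those in the thymus, are opposite.

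Between active and thymic Treg cells of WT mice, Il1rl1 was at 5.01 ± 1.57 CPM (SD, n = 3) in active cells, at least 48.4-fold above a floor of 3 pairs per thymic library, and Il4 was at 11.5, 2.59 and 3.99 CPM against 0, 4 and 13 pairs. Il4, Il9 and Il1rl1 passed the filter through the active libraries alone, so no test or count is read for them. Gata3 was called lower in active cells (log2 difference -0.72 ± 0.11, adjusted p = 4.12e-04), where 23% of 14769 genes were called. Il4ra (-0.35 ± 0.27, adjusted p = 0.398) and Areg (0.77 ± 0.58, 0.397) were not called, and without active WT replicate 2 Il4ra was called lower (-0.76, 0.0329). Under the recorded attachment, which takes the other libraries for WT, Gata3 was lower by a smaller step (-0.36, 0.0331) and Il4ra was called lower (-1.12, 0.0107, against 0.0329 to 0.863 over the other settings).

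In infant Treg cells 1 titled WT library stood apart from its group in Il4 and Il4ra. Il4 was at 18.8, 18.3, 15.5 and 13.3 CPM in the titled TIR1 libraries and at 0.717, 0.771, 0.645 and 17.5 CPM in the titled WT libraries. Il4ra was at 933, 875, 1152 and 1256 CPM in titled TIR1 and at 484, 526, 481 and 1027 CPM in titled WT. In both genes 3 titled WT libraries lay below all titled TIR1 libraries, and replicate 4 lay among them. Infant cells had the highest Il4ra levels of the series, above the 392 CPM of resting GFP Treg cells, although those libraries were counted without the mapping-quality limit used for the degron files.

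Il1rl1 was at 11.8, 17.5, 20.2 and 13.6 CPM in titled TIR1 and 18.8, 30.6, 28.6 and 22.7 CPM in titled WT, where replicate 4 was above every titled TIR1 library. Areg was at 1.96, 1.65, 1.30 and 2.49 CPM in titled TIR1 and 0.872, 0.237, 0.625 and 1.52 CPM in titled WT. Gata3 ranged from 155 to 215 CPM and from 177 to 217 CPM. With all 8 libraries no member was called by edgeR, 3 of the 5 tested (Il4ra, Il1rl1 and Areg) had an unadjusted p below 0.05, and DESeq2 called 1, Il1rl1 (adjusted p = 0.0243; 0.0243 to 0.345 over 12 settings). Of all 16209 genes, 2827 had an unadjusted p below 0.05. The share of genes called was 0.0185% in edgeR, and DESeq2 called 1108 of 16209 genes. Titled TIR1 minus titled WT was 1.77 ± 1.14 for Il4 (adjusted p = 0.477), 0.76 ± 0.26 for Il4ra (0.191), -0.66 ± 0.20 for Il1rl1 (0.137), 1.20 ± 0.46 for Areg (0.208) and -0.04 ± 0.10 for Gata3 (0.875).

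Without titled WT replicate 4, Il4 was called at a log2 difference of 4.55 (adjusted p = 6.20e-07, against 6.20e-07 to 0.681 over its settings), Il4ra at 1.11 (1.84e-04, against 1.84e-04 to 0.408) and Areg at 1.69 (0.0255, against 0.0255 to 0.425). In that fit 1774 genes were called instead of 3. The summed active T cell markers moved with these genes, at 506 to 771 CPM in titled TIR1, 225 to 257 CPM in titled WT replicates 1 to 3 and 549.92 CPM in replicate 4. Treg markers were at 1420.96 CPM in replicate 4 and at 1650 to 1966 CPM in the other 7. Mast cell and basophil markers summed to 20.9 to 31.4 CPM in titled TIR1 and 7.26 to 18.0 CPM in titled WT libraries, and their part in these differences was not tested. What set replicate 4 apart was not tested.

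**Figure D5:**
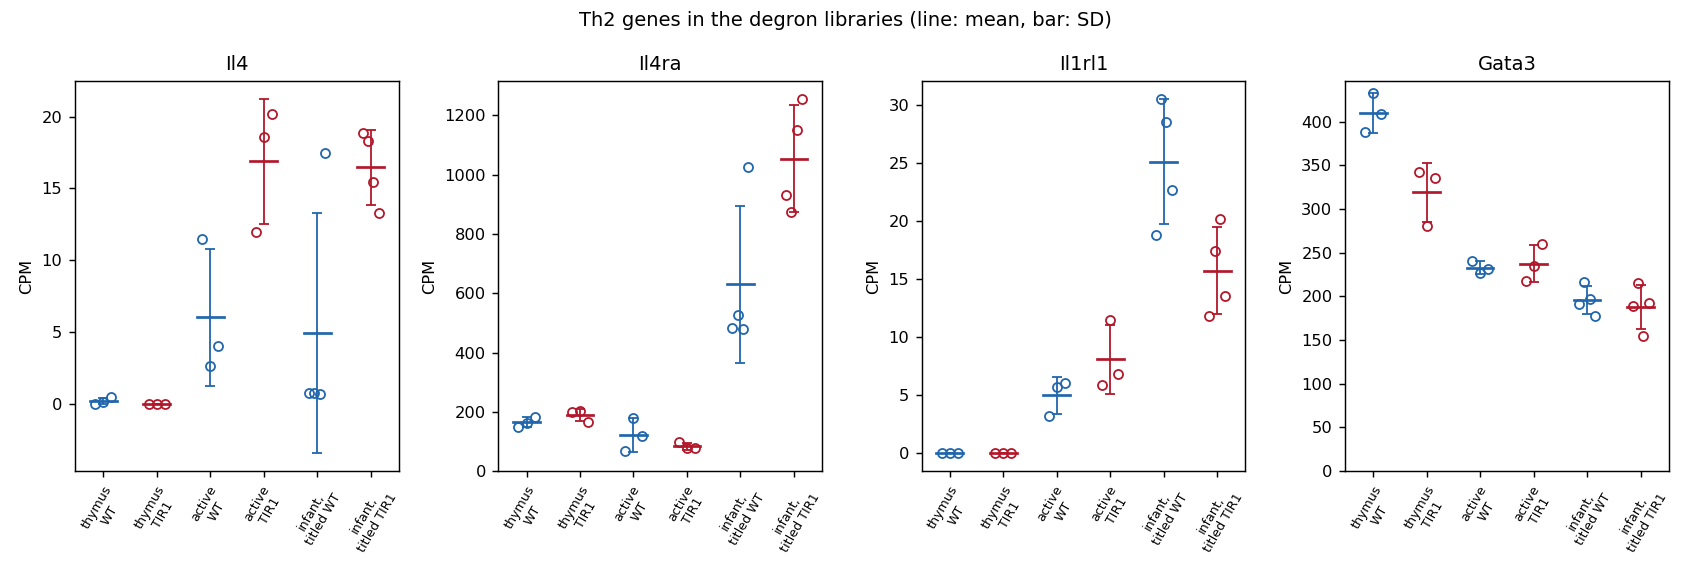
Il4, Il4ra, Il1rl1 and Gata3 in the 6 degron groups, in CPM from 0 (the axes of Il4 and Il1rl1 run below 0 to show the error bars and the points at 0). Circles are libraries, lines means and bars SD (n = 3 in adults, 4 in infants); titled WT replicate 4 of the infants, at 17.5 CPM of Il4 and 1027 CPM of Il4ra, lies with the titled TIR1 libraries.

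Per length (reads per kilobase of exons and per 1e+06 counted pairs, RPKM), Gata3 and Il4ra held the 2 highest mean levels of the list in every group other than active minusFoxp3 at days 0, 3, 7 and 14 and untreated active plusFoxp3, where Il4 was among the first 2. In thymic WT cells Gata3 was at 103 ± 5.65 RPKM (SD, n = 3) and Il4ra at 27.5 ± 2.88. In titled WT infants Il4ra led with 105 ± 44.3 RPKM, and Gata3 was at 49.2 ± 4.09 (n = 4). In active minusFoxp3 cells at day 0 the order was Gata3 (42.5 ± 1.31 RPKM), Il4 (25.6 ± 10.1) and Il4ra (17.5 ± 5.55), of which Il4 and Il4ra lay within their SD (n = 2). In active GFP Treg cells Gata3 (60.8 ± 9.35 RPKM) and Il4ra (58.0 ± 0.387) lay within their SD, followed by Areg at 10.8 ± 3.48, Il1rl1 at 3.06 ± 1.25 and Il4 at 0.451 ± 0.303 RPKM. The mean levels of Il5 and Il13 reached at most 0.217 and 0.110 RPKM.

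The partners of the 8 genes were followed in 7 lists, which together held 69 genes, of which 62 were tested in the reversible-allele fits. Over days 3 to 28, 6 of 62 were called higher and 2 lower in resting cells, where 4.73% of all genes were called, and 7 higher and 8 lower in active cells, where 6.22% were. IL-4 receptor partners gave 1 called gene in active and 0 in resting cells, and the IL-33 receptor signalling list gave 1 in each. Irak2, a kinase adaptor that acts after ST2, was called higher in resting cells (0.67 ± 0.12, adjusted p = 0.00284).

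Of 10 tissue Treg genes, resting cells had 3 called higher and 1 lower, and active cells 3 higher and 2 lower, with medians of 0.79 and 0.20 beside -0.02 and near 0 over all genes. Itgae, the integrin chain CD103, was higher in both resting (3.44 ± 0.32) and active cells (1.94 ± 0.14). Klrg1, a receptor of differentiated Treg cells, was higher in active cells (4.28 ± 0.42), at a mean of 14.5 CPM against 0.351 CPM. Prdm1, which encodes the repressor Blimp-1, was higher in resting cells (1.23 ± 0.20). Il18r1, the receptor of the alarm cytokine IL-18, was lower in resting (-1.61 ± 0.20) and active cells (-0.72 ± 0.11).

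Among Th2 transcription regulators 0 were called higher in either state, 1 lower in resting and 4 lower in active cells. Tcf7, which promotes early Gata3 expression, was lower in resting cells (-0.82 ± 0.08). Of 9 tested Th2 surface and effector genes, resting plusFoxp3 cells had 1 called higher, and active ones 2 higher and 2 lower. Il21, a cytokine of follicular helper cells, was lower with Foxp3 in active cells (-2.48 ± 0.27), at a mean of 18.8 CPM against 98.6 CPM. Hbegf, another ligand of the EGF receptor, rose by 1.17 ± 0.19 in resting cells, at a mean of 3.37 CPM against 1.60 CPM. Of the 4 genes beside the cytokine locus (Rad50, Kif3a, Irf1 and Septin8), 0 were called in resting and 1, lower, in active cells.

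Against untreated minusFoxp3 cells, active GFP Treg cells had 13 of 62 partner genes called higher and 13 lower, where 10% of all genes were called. Irs2 and Socs5, which signal from and restrain the IL-4 receptor, were higher (2.37 ± 0.50 and 1.87 ± 0.33). Maf, an activator of the Il4 promoter, was lower (-1.46 ± 0.25), at 231 CPM against 646 CPM. Septin8 and Kif3a, which lie next to Il4 on the side away from Il13, were lower (-2.41 ± 0.40 and -0.94 ± 0.19), and Irf1, beyond Il5, was higher (0.79 ± 0.19). In resting cells 7 were called higher and 2 lower, where 2.91% of all genes were called. In the genotype comparisons of thymic, active and infant degron cells 0 of 52, 59 and 59 tested partners were called by edgeR.

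The genes whose pattern was most like each of the 5 tested ones were taken over 22 group means of the reversible-allele and GFP libraries, among 12399 genes with a mean of at least 100 pairs. Libraries of 1 cell state share much of their pattern, so these correlations describe and do not test. Il4 was followed by St6galnac3 (Pearson r = 0.985) and ENSMUSG00000121239 (0.972). Il4ra was followed by Il21r (0.979), Patj (0.971) and Ppm1m (0.968), Il1rl1 by Ifngr1 (0.932), Gbp3 (0.907) and Itgb1 (0.895). Gata3 was followed by Lmna (0.929), Bspry (0.917) and Acads (0.908), and Areg by Ctsa (0.945), Batf (0.943) and Eea1 (0.941).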

How the data were processed

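Bulk RNA-seq of 64 mouse libraries was analysed. The study's methods describe amplification with a SMART-Seq kit in their passage on the adult degron mice. Amplified read pairs are not independent molecules. The authors deposited 1 file per library with whole-number counts of read pairs per gene name, made with featureCounts on GRCm39 and a GENCODE annotation, without strand. Per the file headers, the 20 degron libraries were counted from primary, non-chimeric alignments above a mapping-quality limit. The other 44 were counted without these limits. Tests therefore compared groups only within 1 setting, and levels set side by side across the settings were not tested. The study's methods name STAR as aligner, while the submitters' processing notes list Bowtie2, featureCounts, DESeq2 and mm39.

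Libraries were grouped by the labels, adult degron files by the library name in their header. Counts were tested with edgeR 4.0.16 (R 4.3.3; TMM scaling, quasi-likelihood test, Benjamini-Hochberg adjustment over all genes with a mean of at least 10 pairs), in separate fits for thymic, active and infant degron libraries, all adult degron libraries, resting libraries, active libraries and both states. A call is an adjusted p below 0.05. Effects over days 3 to 28 are the mean of the 4 daily differences. CPM used the library total, and RPKM also the exonic length. Adult degron and reversible-allele replicates were independent samples per the study's methods. Where that is not stated, p-values measure only the spread between these libraries. Of 46 replicate pairs 0 were identical, and the smallest chi-square per degree of freedom was 17.3. The scripts were checked on simulated data.

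The 8 genes, the lists of partner and marker genes and the tests were chosen with earlier results of these data known. Beside the 8 genes and Foxp3, partner genes were named by a rule: at most 2 in each direction from a list, those that changed most among called genes without overlap between groups and with a mean of at least 100 pairs (some were left out here), and the 3 genes most like each of the 8 by Pearson r of log2 CPM (prior count 2), of which 1 is not reported here. Alternatives were RLE scaling, no count filter, DESeq2 1.42.0, the replicate number as a block, fits of the compared libraries alone, the recorded file attachment and leaving out each library.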

Additional observations from a re-analysis of the deposited data

Results flagged for a closer look

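Among infant groups, 4 values stood apart from the rest of their group by Dixon's test. Titled WT replicate 4 held 17.5 CPM of Il4 and 1027 CPM of Il4ra, of a kind that chance alone gives in about 1 in 20 groups. It also held 0.0179 CPM of Il13, from 1 read pair. Titled TIR1 replicate 3 held 0.249 CPM of Il5, from 12 read pairs, where the other 3 libraries held 0. With the other libraries of a group at 0, any non-zero count is set apart by construction, so the rate of 1 in 20 does not apply to Il13 and Il5.

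Some differences between plusFoxp3 and minusFoxp3 cells had opposite signs in every library at different times or states, and the change of sign was not tested. Groups of 2 libraries often separate fully by chance, and the share of all genes that did so was not computed. Areg in active cells differed by -1.71 CPM at day 0, when all plusFoxp3 libraries were lower, while at days 7 and 14 all were higher. Il13 in resting cells differed by -0.0125 CPM at day 3 and by 0.00951 CPM at day 7, while in active cells at day 7 all plusFoxp3 libraries were lower. These Il13 values rest on 0 to 3 read pairs per library.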

How the results depend on the processing

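Over 1556 recomputed values of single members, 0 called values changed sign, 37 calls were lost and 36 gained. RLE scaling changed 0 calls. The replicate block, with numbers that did not pair the samples (correlations of deviations -0.0770 to 0.0397 with 3 or more pairs, -0.0742 to 0.145 with 2), added 1 call, Areg in active GFP Treg against untreated minusFoxp3 cells (adjusted p = 0.0345, over a range of 0.00758 to 0.336), and changed no other. The causes of the changes below were not tested.

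Counts of called members moved as follows. DESeq2 called 1 member among 156 genes in thymus and 1 among 1108 in infants, where edgeR called 0 members among 0 and 3 genes. It called 1 among 220 at resting day 3, 1 among 294 at resting day 14 and 2 among 463 at resting day 28, against 0 among 10, 55 and 194. It called 1 among 264 at active day 3 (edgeR 0 among 57), 2 among 793 at active day 28 (1 among 385) and 2 among 819 in active GFP Treg against plusFoxp3 day 28 (1 among 417). Without the count filter 2 each were called at resting days 3, 14 and 28 (among 664, 665 and 884 genes), 1 at active day 3 (575), 2 at active day 28 (1174), 3 in active GFP Treg against plusFoxp3 day 28 (1217) and 1 between states in GFP Treg cells (1411, against 0 among 648). With the compared libraries alone 1 was called at resting day 3 (204), 0 at active day 7 (4, against 118) and 0 in active GFP Treg against plusFoxp3 day 28 (89). Leaving out each library gave 0 to 3 in infants, 0 to 3 at active day 7, 0 to 1 at active day 14 and 0 to 1 in active GFP Treg against plusFoxp3 day 28. The fits that gave 0 on active days 7 and 14 called 28 to 39 and 56 to 68 genes, against 118 and 152, and that with 3 in infants called 1774. A lone library left in a group was assumed to vary like the other groups. Under the recorded attachment of the adult degron files every TIR1 minus WT value of a tested member, 3 in thymus and 6 in active cells, had the opposite sign, and none was called either way.

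In the reversible experiment differences in Il5, Il9 and Il13 were not detectable at this depth.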
